A study of Mus musculus with 18 samples.

Results

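The Rag GTPases, the folliculin complex and the TFEB family were followed in the ileum of IEC-*Ppara* mice through 10 genes chosen by name, out of 55487 genes counted. These were the Rag GTPase genes *Rraga*, *Rragb*, *Rragc* and *Rragd*, folliculin (*Flcn*) with its partners *Fnip1* and *Fnip2*, and the transcription factor genes *Tfeb*, *Tfe3* and *Mitf*. The group was assembled around *Rragd*, which had been seen to be lower in homozygous IEC-*Ppara* ileum in these same libraries. Its values in every comparison between genotypes are therefore given as a description, with no test. The other 9 genes belong to the same pathway by their known function.

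RNA from ileum of 18 mice on chow was sequenced, with 1 library per mouse and 6 mice in each of 3 groups. IEC-*Ppara* mice carried CAG-*Ppara*,-*EGFP* in the *Col1a1* safe harbor locus, on 1 allele (heterozygous) or both (homozygous), together with *Villin-CreERT2*, which is active in intestinal epithelium. The paper describes the controls as littermates with CAG-*Ppara*,-*EGFP* but without Cre. The number of transgene alleles in each control is not given. Every IEC-*Ppara* mouse and no control had Cre, so differences from controls cannot be told apart from an effect of Cre. All mice, controls included, were on a C57BL6/J background and received tamoxifen at 100 mg/kg on 3 consecutive days, and tissue was taken 2 weeks later, at 8 to 13 weeks of age. Controls were 3 females and 3 males, and each IEC-*Ppara* group was 2 females and 4 males. The full thickness of the wall was taken, so the transgene acted in the epithelium while the RNA came from all cell types of the wall, and fewer cells of a type cannot be told apart from less RNA per cell.

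When amino acids are plentiful, Rag GTPases bring mTORC1, the kinase complex that drives growth, to the surface of the lysosome, working as pairs of RagA or RagB with RagC or RagD. Folliculin bound to FNIP1 or FNIP2 stimulates GTP hydrolysis by RagC and RagD, and this step lets mTORC1 phosphorylate TFEB and its relatives and keep them in the cytoplasm. When the step fails, as in starvation, the factors enter the nucleus and bind CACGTG-like sequences in lysosomal and autophagy genes, and *Rragd*, *Flcn* and *Fnip2* are themselves known targets of these factors in other cells.

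Libraries held between 38528522 and 50376371 counts. *Ppara*, the induced gene, was at 38.1 ± 8.40 CPM (counts scaled to the library total; mean ± SD, n = 6) in controls, 141 ± 35.4 in heterozygous and 216 ± 35.5 in homozygous mice, and neither IEC-*Ppara* group overlapped the controls. *Xist* separated the libraries as the labelled sexes did. The male control 2 held 6.59 CPM, against at most 0.429 in the other males and at least 353 in females. The ileal markers *Fabp6*, *Slc10a2*, *Fgf15*, *Slc51a* and *Slc51b* summed to between 3590 and 7310 CPM in every library, as the labelled tissue would have. The libraries differed widely in 10 smooth muscle markers, which summed to between 682 and 9690 CPM. B cell markers were far above the rest in control 2, control 3 and heterozygous 2, reaching 549 CPM, and homozygous 1 was at 90.4 CPM, against 17.0 CPM in the lowest control.

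Promoter sequences of the members are shown first because the TFEB family reads CACGTG in DNA, and the deposited gene positions place the 10 genes on 6 chromosomes with *Rraga*, *Rragc* and *Rragd* all on chromosome 4. RefSeq promoters of build GRCm38.p6, running from 250 bases before to 50 bases after a gene start, were found for all 10 members, in 15 windows. The letters CACGTG, which read the same on both strands, occurred in the windows of *Rragc*, *Rragb* and *Fnip1*, that is in 3 of 10 genes, against 8.09% of 27025 genes and 7.15% of 32851 windows. The hexamer lay 112 bases before the gene start in *Rragc*, 75 bases before it in *Fnip1*, and 127, 36 and 3 bases before it in *Rragb*. *Rragd*, the member with lower values in homozygous mice, had no CACGTG in its window, and its sequence is printed beside those of its closest relative *Rragc*, of *Rragb* with 3 matches, and of *Fnip1*. All 4 lie on the plus strand, at chr4:32982748-32983047 (*Rragd*), chr4:123917183-123917482 (*Rragc*), chrX:153139708-153140007 (*Rragb*) and chr11:54437929-54438228 (*Fnip1*), and capitals mark CACGTG.
Rragd: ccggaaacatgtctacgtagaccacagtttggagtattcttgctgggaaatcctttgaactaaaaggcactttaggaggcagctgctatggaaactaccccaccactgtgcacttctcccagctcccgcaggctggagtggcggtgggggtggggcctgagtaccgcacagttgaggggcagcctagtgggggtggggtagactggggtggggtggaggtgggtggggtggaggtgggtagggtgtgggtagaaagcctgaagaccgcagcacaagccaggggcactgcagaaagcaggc
Rragc: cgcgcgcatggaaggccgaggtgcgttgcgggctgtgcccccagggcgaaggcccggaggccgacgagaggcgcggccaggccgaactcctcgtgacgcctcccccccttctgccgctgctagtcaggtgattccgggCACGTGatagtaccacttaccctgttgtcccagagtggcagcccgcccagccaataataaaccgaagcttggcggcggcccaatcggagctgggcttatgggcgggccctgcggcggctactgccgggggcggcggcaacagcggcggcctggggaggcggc
Rragb: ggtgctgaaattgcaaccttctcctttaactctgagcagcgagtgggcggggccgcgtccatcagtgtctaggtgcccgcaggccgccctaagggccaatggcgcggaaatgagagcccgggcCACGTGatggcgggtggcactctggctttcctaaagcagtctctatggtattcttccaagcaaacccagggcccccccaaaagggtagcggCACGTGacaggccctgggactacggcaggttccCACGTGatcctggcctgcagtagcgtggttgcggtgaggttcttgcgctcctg
Fnip1: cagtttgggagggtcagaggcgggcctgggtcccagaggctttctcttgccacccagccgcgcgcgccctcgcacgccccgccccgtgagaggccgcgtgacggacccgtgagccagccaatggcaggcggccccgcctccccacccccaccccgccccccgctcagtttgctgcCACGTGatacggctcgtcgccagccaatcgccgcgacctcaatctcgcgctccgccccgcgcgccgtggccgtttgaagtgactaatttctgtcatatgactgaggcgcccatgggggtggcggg
Other motifs were searched on both strands as well. The CLEAR element, a longer palindrome with CACGTG at its centre, was in 0.326% of all windows. TCATGTG, a site known for MITF, was in 3.77% and does not contain CACGTG. The PPAR element, AGGTCA followed by the same letters after a spacer of 1 base, was in 0.0396%. None of these 3 occurred in a window of any member, which says only that these letters are not in these windows.

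*Rragd* (ENSMUSG00000028278, chr4:32983037-33022180, plus strand in the GRCm38 positions of the count files) encodes RagD, which pairs with RagA or RagB, and was the member with the largest differences between homozygous mice and the other groups, for which it was chosen. Control libraries 1 to 6 held 34.9, 36.9, 28.9, 30.7, 21.5 and 33.0 CPM. Heterozygous libraries 1 to 6 held 31.8, 27.0, 28.1, 19.1, 28.4 and 33.1 CPM. Homozygous libraries 1 to 6 held 17.2, 15.9, 22.0, 19.8, 15.1 and 14.2 CPM. In homozygous mice 5 of 6 libraries were below the lowest control and all 6 were below the control mean, and the groups met only where homozygous 3 exceeded control 5. Against heterozygous mice, 4 of 6 homozygous libraries were below the lowest value, which was that of heterozygous 4. The means were 31.0 ± 5.45 CPM in controls, 27.9 ± 4.94 in heterozygous and 17.4 ± 3.01 in homozygous mice (SD, n = 6 each). These values rest on 597 to 1859 counts per library, so counting error is small beside the spread between mice.

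On the log2 scale the fitted *Rragd* change was -0.84 (SE 0.14) in homozygous against control mice and -0.72 (SE 0.14) in homozygous against heterozygous mice, both descriptive, which is a level lower by 44.0% and 39.1%. Heterozygous against control gave -0.12 (SE 0.14, 95% interval -0.40 to 0.16). It used the same control and heterozygous libraries as the contrasts above, so it is descriptive as well. Adjusted p-values elsewhere are from edgeR's quasi-likelihood test with Benjamini-Hochberg adjustment over 12645 genes, unless another setting is named. The heterozygous and control libraries overlapped almost fully, with 1 heterozygous library below the lowest control and 2 controls above the highest heterozygous library. Among females *Rragd* averaged 32.9 CPM in 3 controls and 15.5 in 2 homozygous mice, and among males 29.1 in 3 controls and 18.3 in 4 homozygous mice. In males alone the fitted difference of homozygous from control mice was -0.66.

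**Figure D1:**
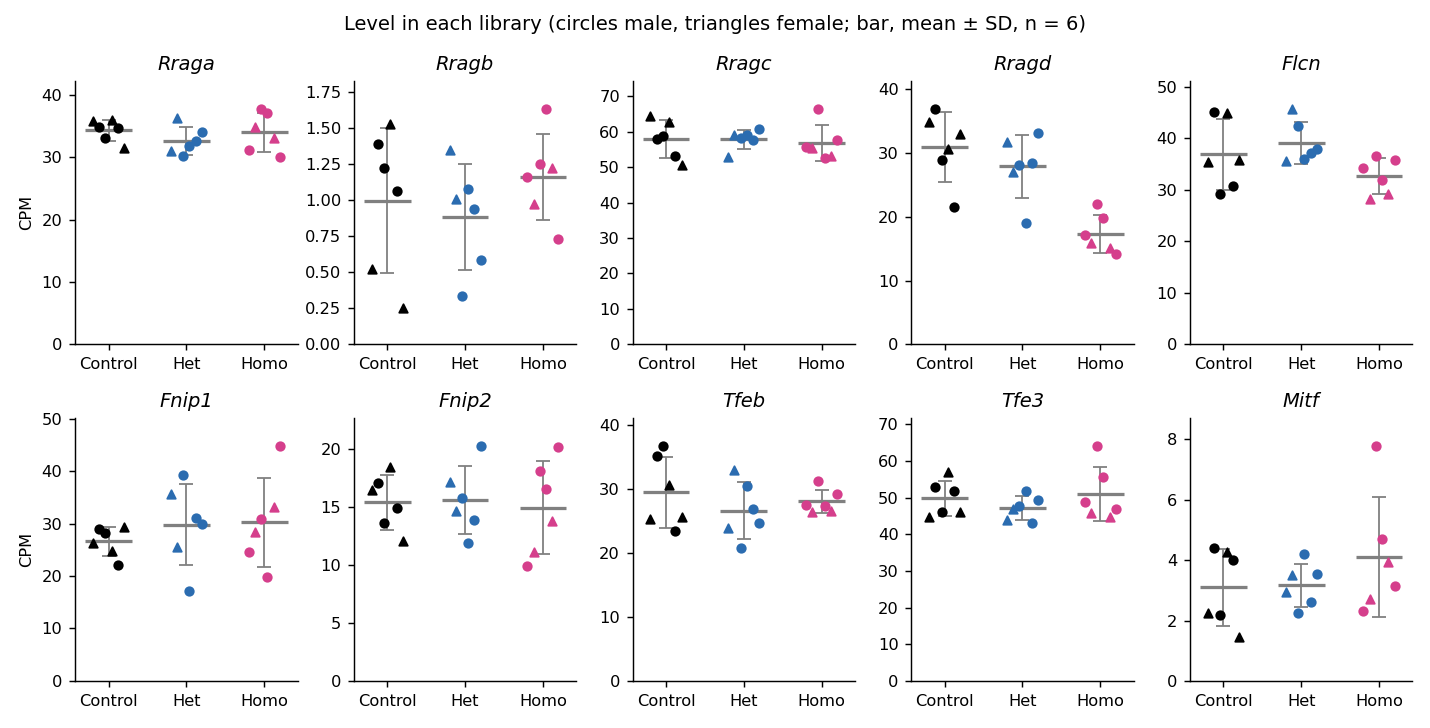
Level of each of the 10 members in CPM (vertical axes, each starting at 0) in the 18 libraries, by genotype (Het, heterozygous; Homo, homozygous), with circles for males, triangles for females and bars for mean ± SD of 6 libraries. Only *Rragd* has its homozygous libraries, at 14.2 to 22.0 CPM, almost wholly below the controls, at 21.5 to 36.9 CPM.

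The 16 marker lists, of other cells and of gut position, are given beside *Rragd* for homozygous against control mice. In them 3 genes, *Fabp1*, *Fabp2* and *Ret*, passed the test by edgeR, which 0.411% of all genes tested did. The paper reports *Fabp1* and *Fabp2* among lipid uptake genes raised in IEC-*Ppara* ileum, so their values need not reflect cell makeup. The 5 distal ileum markers summed to 4670 to 7310 CPM in controls, 4930 to 6390 in heterozygous and 3590 to 6180 in homozygous mice, and 4 of the 5 had a lower fitted value in homozygous than in control mice, with none passing the test. The medians of the sums were 6000, 5990 and 3960 CPM in the same order. Homozygous 3 to 6, at 3590 to 3990 CPM, lay below every control and heterozygous library, and homozygous 1 and 2 lay within the control range. The library with the lowest *Rragd* was also the lowest in distal ileum markers in each of the 3 groups, namely control 5 (4670 CPM), heterozygous 4 (4930 CPM) and homozygous 6 (3590 CPM), and heterozygous 6 was the highest of its group in both. The order of the others was not always shared. Homozygous 1 had the highest homozygous sum, 6180 CPM, with *Rragd* at 17.2 CPM, homozygous 3 had the highest homozygous *Rragd*, 22.0 CPM, at a sum of 3990 CPM, and control 2 had the highest *Rragd* of all, 36.9 CPM, at a sum of 5480 CPM, next to the lowest of the controls. All 10 smooth muscle markers had higher fitted values in homozygous than in control mice, again with none passing the test, and summed to 682 to 6140 CPM in controls, 852 to 4510 in heterozygous and 4160 to 9690 in homozygous mice. The highest smooth muscle sum went with the lowest *Rragd* among controls (control 5), but with the highest *Rragd* among heterozygous (heterozygous 6, 4510 CPM) and homozygous mice (homozygous 3, 9690 CPM).

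Markers of proximal intestine summed to 74.5 to 113 CPM in controls, 147 to 248 in heterozygous and 211 to 270 in homozygous mice, with no overlap of either IEC-*Ppara* group with controls. That gap rested on *Fabp1*, since the other 5 genes summed to 66.5 to 106, 68.6 to 86.3 and 59.1 to 97.5 CPM. Of its 3 genes tested all had higher fitted values in homozygous mice and 1 was called, *Fabp1*, a known target of PPARα, at 10.8 ± 3.30 CPM in controls and 158 ± 13.5 in homozygous mice (adjusted p = 9.03e-09 by edgeR). Of 6 markers of enteric neurons and glia tested all were higher and 1 was called, *Ret*, at 17.0 ± 3.52 and 31.5 ± 5.85 CPM (adjusted p = 0.000465), and the sums were 19.0 to 54.3 CPM in controls and 47.6 to 91.6 in homozygous mice. Enterocyte sums overlapped widely, at 14600 to 23000 CPM in controls and 15300 to 22500 in homozygous mice, while of 8 genes tested 6 were higher, 2 were lower and 1 was called, *Fabp2*, at 1070 ± 145 and 2050 ± 302 CPM (adjusted p = 0.00116). All 8 fibroblast markers were higher (median 0.36), and all 9 B cell (median -3.03) and all 5 T cell markers tested (median -0.81) were lower. Markers of interstitial cells of Cajal were higher in 3 of 3 (median 0.44), and lower values were found in 7 of 8 Paneth cell (median -0.14), 4 of 5 stem cell (median -0.16), 4 of 5 enteroendocrine (median -0.09) and 4 of 5 tuft cell markers tested (median -0.13). Goblet cell markers were higher in 4 of 7 (median 0.01) and those of macrophages and dendritic cells in 6 of 9 (median 0.05), and the 1 mast cell marker tested was higher (0.84). In all of these lists from fibroblasts on, 0 genes were called by edgeR. No marker gene of the 16 lists was at 0 in all libraries.

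The *Rragd* value of -0.84 became -0.80 with the smooth muscle score as a covariate, -0.82 with the B cell score, -0.72 with the distal ileum score and -0.90 with the enterocyte score. The last pair of covariates was added after the data were seen. The enterocyte score includes *Fabp2*, which was itself called in homozygous mice, so that score carries part of the genotype difference. This limit holds for every fit below that uses the enterocyte score. Leaving out any 1 library gave -0.92 to -0.79, with the largest size when control 5 was left out. The part of the other lists in the *Rragd* values was not tested.

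**Figure D2:**
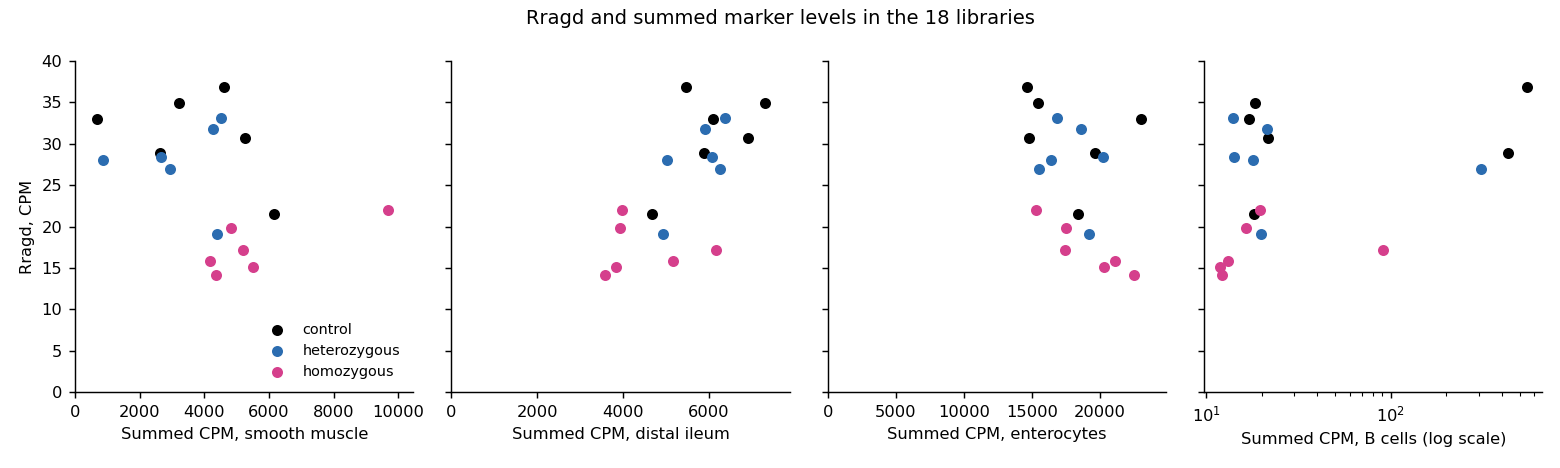
*Rragd* in CPM (vertical axis) against the summed CPM of markers of smooth muscle, distal ileum, enterocytes and B cells (horizontal axes, the last on a log scale), 1 point per library, coloured by genotype. Control 5 at 21.5 CPM and heterozygous 4 at 19.1 CPM lie near the homozygous points in the distal ileum panel, while homozygous 1 lies to their right at a sum of 6180 CPM.

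*Rragc* (chr4:123917446-123936997, plus strand), which encodes RagC and fills the same place in the pair as RagD, did not differ past the threshold between any groups. The lowest, median and highest values were 50.5, 58.5 and 64.6 CPM in controls, 52.9, 58.7 and 60.7 in heterozygous and 52.6, 55.6 and 66.4 in homozygous mice. The groups overlapped throughout, and homozygous 3 was the highest library of all. The fitted differences were -0.03 (95% interval -0.15 to 0.10) for homozygous against control, 0.03 (-0.09 to 0.15) for heterozygous against control and -0.05 (-0.18 to 0.07) for homozygous against heterozygous, with adjusted p of 0.953, 1 and 0.820 by edgeR. Expressed per gene length as FPKM, which allows genes to be set beside each other, *Rragd* made up 25.6 ± 3.42% of the sum of *Rragc* and *Rragd* in controls, 23.7 ± 3.66% in heterozygous and 16.5 ± 2.03% in homozygous mice (SD, n = 6). The homozygous shares, 13.7 to 19.6%, lay below every control share, 20.7 to 29.7%, and overlapped the heterozygous ones, 17.2 to 28.0%. This share contains *Rragd* and is likewise a description.

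*Rraga* (chr4:86575668-86577285, plus strand) encodes RagA, the partner of RagC or RagD, and was the most abundant member per length. Its lowest, median and highest values were 31.4, 34.8 and 35.9 CPM in controls, 30.2, 32.2 and 36.3 in heterozygous and 30.0, 34.0 and 37.7 in homozygous mice, with full overlap. The fitted differences ran from -0.04 to 0.03 over the 3 comparisons, and the 95% interval for homozygous against control was -0.12 to 0.10. *Rragb* (chrX:153139981-153171943, plus strand), which encodes the close relative RagB, was near the floor of these libraries, with 10 to 73 counts. It exceeded 3 CPM in 0 of 18 libraries and so was not among the genes tested. Its means were 0.995 ± 0.505 CPM in controls, 0.882 ± 0.365 in heterozygous and 1.16 ± 0.301 in homozygous mice, and two-sided exact permutation tests over 924 arrangements gave p = 0.511, 0.652 and 0.18 for homozygous against control, heterozygous against control and homozygous against heterozygous. *Rragb* made up 2.01% of the summed *Rraga* and *Rragb* FPKM in controls and 2.37% in homozygous mice, with overlapping ranges.

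*Flcn* (chr11:59791408-59810016, minus strand) encodes folliculin, the GTPase-activating protein for RagC and RagD. Its lowest, median and highest values were 29.1, 35.6 and 45.0 CPM in controls, 35.5, 37.6 and 45.6 in heterozygous and 28.2, 33.0 and 36.5 in homozygous mice. The control range took in most of the other groups, whereas the homozygous libraries overlapped the heterozygous ones only at 35.5 to 36.5 CPM. The fitted difference for homozygous against heterozygous was -0.29 (SE 0.10, 95% interval -0.47 to -0.10), with an unadjusted p of 0.00758 and an adjusted p of 0.571 by edgeR, so it did not pass the test over all genes. Adjusted p over the alternatives with all libraries ran from 0.348 with DESeq2 to 0.999 with the smooth muscle score. For homozygous against control the difference was -0.17 (SE 0.10, adjusted p = 0.687), and in males alone it was 0.00. Heterozygous against control gave 0.12 (SE 0.10, adjusted p = 1).

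*Fnip1* (chr11:54438199-54518235, plus strand) and *Fnip2* (chr3:79455974-79567796, minus strand) encode the folliculin-interacting proteins, through which folliculin docks at the lysosome. *Fnip1* had a lowest, median and highest value of 22.1, 27.2 and 29.3 CPM in controls, 17.2, 30.5 and 39.2 in heterozygous and 19.9, 29.5 and 44.8 in homozygous mice. The spread was wider in both IEC-*Ppara* groups, with an SD of 7.75 and 8.52 CPM against 2.81 in controls, and the difference in spread was not tested. The fitted difference was 0.19 (SE 0.19) in both comparisons with controls and 0.00 between homozygous and heterozygous mice, and adjusted p ran from 0.844 to 1. Without homozygous 6, the library with the highest *Fnip1*, homozygous against control was 0.04 and homozygous against heterozygous -0.16, and without heterozygous 4, the lowest, heterozygous against control was 0.32. *Fnip2* was at 15.4 ± 2.37 CPM in controls, 15.6 ± 2.90 in heterozygous and 14.9 ± 4.03 in homozygous mice, with fitted differences of -0.09 to 0.05. Its share of the summed *Fnip1* and *Fnip2* FPKM was 32.3 ± 4.71%, 30.6 ± 4.71% and 29.1 ± 6.34% in the same order. The ranges of these shares overlapped.

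*Tfeb* (chr17:47737030-47792419, plus strand) and *Tfe3* (chrX:7762560-7775202, plus strand) encode the transcription factors that folliculin and the Rag GTPases hold in the cytoplasm. *Tfeb* had a lowest, median and highest value of 23.5, 28.2 and 36.8 CPM in controls, 20.8, 25.9 and 33.1 in heterozygous and 26.5, 27.5 and 31.3 in homozygous mice. *Tfe3* had 44.8, 49.1 and 56.9 CPM in controls, 43.0, 47.3 and 51.8 in heterozygous and 44.8, 48.0 and 64.1 in homozygous mice. All 3 groups overlapped for both genes. Homozygous against control differences were -0.07 (95% interval -0.29 to 0.16) for *Tfeb* and 0.04 (-0.10 to 0.17) for *Tfe3*, with adjusted p of 0.935 and 0.943 by edgeR. The highest *Tfeb* values, 36.8 CPM in control 3, 35.3 in control 2 and 33.1 in heterozygous 2, were those of the libraries with the highest B cell sums, 435, 549 and 310 CPM. With the B cell score as a covariate the *Tfeb* difference of homozygous from control mice was 0.06 (adjusted p = 0.947). The 2 transcripts were nearly equal per length, since *Tfeb* made up 48.9 ± 4.82% of their summed FPKM in controls and 47.5 ± 2.48% in homozygous mice.

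*Mitf* (chr6:97807052-98021349, plus strand), the third factor, is best known from melanocytes, osteoclasts and mast cells, and was low here. It exceeded 3 CPM in 3 of 6 control, 3 of 6 heterozygous and 4 of 6 homozygous libraries. Its lowest, median and highest values were 1.46, 3.13 and 4.41 CPM in controls, 2.24, 3.23 and 4.20 in heterozygous and 2.33, 3.54 and 7.78 in homozygous mice. Homozygous 3 stood above all other libraries, and the groups otherwise overlapped. That library also had the highest sums of smooth muscle (9690 CPM), macrophage and dendritic cell (1590 CPM) and mast cell markers (12.3 CPM), and the lowest *Mitf* values of the other groups, in control 6 and heterozygous 3, came with the lowest smooth muscle sums, 682 and 852 CPM. The fitted difference for homozygous against control was 0.41 (SE 0.29, 95% interval -0.14 to 0.97, adjusted p = 0.741 by edgeR), and it was 0.08 with the smooth muscle score as a covariate and 0.91 (adjusted p = 0.115) with the enterocyte score. Heterozygous against control gave 0.08 (SE 0.29, adjusted p = 1) and homozygous against heterozygous 0.34 (SE 0.28, adjusted p = 0.750). The heterozygous against control value was 0.21 with the smooth muscle score and 0.60 (adjusted p = 0.738 by edgeR) with the enterocyte score. Without homozygous 3 the differences of homozygous mice were 0.15 from controls and 0.07 from heterozygous mice.

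Of the 9 members other than *Rragd*, 8 passed the filter of more than 3 CPM in at least 4 libraries. Against controls, 3 of the 8 had higher and 5 had lower fitted values in homozygous mice, with a median of -0.02, and 0 passed an adjusted p under 0.05 by edgeR, against 0.411% of all genes tested by edgeR. DESeq2 and limma-voom also called 0 of the 8 in this and the other comparisons, and the backgrounds given are those of edgeR. None had an unadjusted p under 0.05, which 8.06% of genes had, and none had groups that did not overlap, which 0.854% had. In heterozygous against control mice, 5 were higher and 3 lower, with a median of 0.04, and 0 were called by edgeR (background 0.293%), with 0 at an unadjusted p under 0.05 (background 5.29%) and 0 without overlap (background 0.467%). Between homozygous and heterozygous mice, 4 were higher and 4 lower, with a median of 0.01, and 0 were called by edgeR (background 0.00791%), with 1, *Flcn*, at an unadjusted p under 0.05 (background 7.61%) and 0 without overlap (background 0.269%). The median over all genes was within 0.01 of 0 in each comparison. Between females and males, 0 of the same 8 members were called by edgeR (background 0.0554%) and 0 had an unadjusted p under 0.05 (background 3.39%), with *Tfe3* nearest at -0.10 (SE 0.06, females minus males, adjusted p = 0.998). *Rragd* gave 0.04 (SE 0.12, adjusted p = 0.998 by edgeR) in that comparison. The difference between the sexes in the homozygous effect was called in 0 of the 8 by edgeR (background 0.00%), with 0 at an unadjusted p under 0.05 by edgeR (background 2.04%), and the nearest was *Flcn*, at -0.39 (SE 0.19, unadjusted p = 0.0566, adjusted p = 1).

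**Figure D3:**
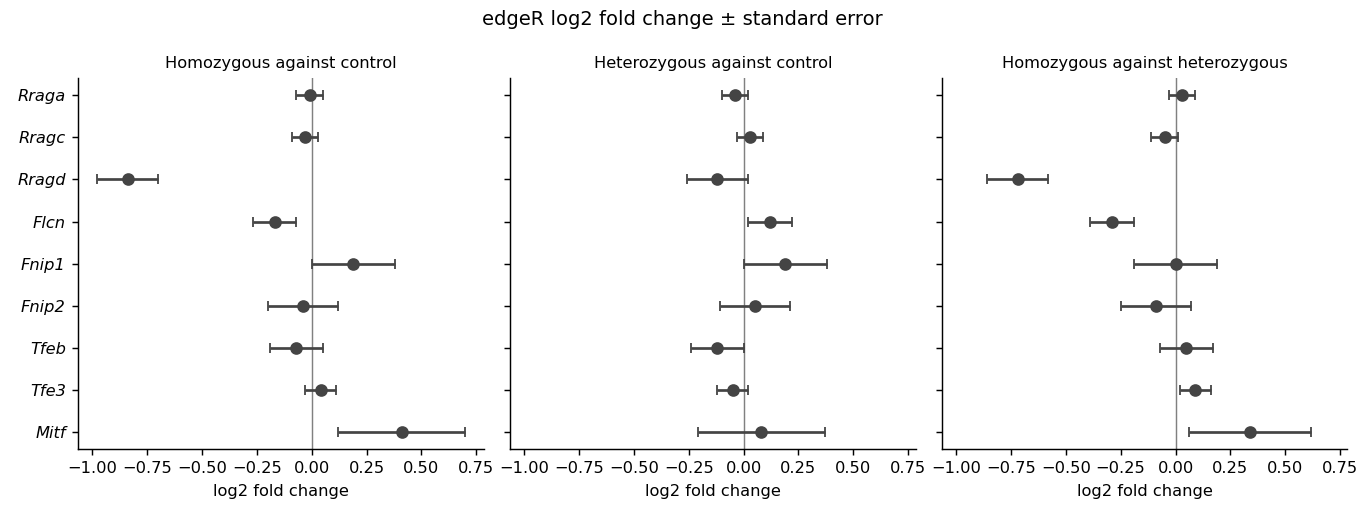
Fitted log2 fold change with its standard error (horizontal axes) of the 9 members that passed the filter, in the 3 comparisons between genotypes. *Rragd*, whose values are descriptive, lies at -0.84 and -0.72 in the comparisons that involve homozygous mice, and the other members lie between -0.29 and 0.41.

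Set in order of FPKM, controls ran *Rraga* (21.2 ± 1.07), *Rragc* (17.4 ± 1.62), *Flcn* (8.52 ± 1.58), *Rragd* (5.99 ± 1.05), *Tfe3* (5.38 ± 0.523), *Tfeb* (5.21 ± 0.988), *Fnip1* (3.73 ± 0.394), *Fnip2* (1.77 ± 0.273), *Mitf* (0.499 ± 0.206) and *Rragb* (0.441 ± 0.224). The control ranges of neighbours overlapped from *Flcn* to *Rragd*, from *Rragd* to *Tfe3*, from *Tfe3* to *Tfeb* and from *Mitf* to *Rragb*, and the other neighbours were apart. In homozygous mice *Rragd*, at 3.36 ± 0.581 FPKM, stood after *Fnip1* (4.25 ± 1.20), with overlapping ranges, in place 7 of 10, and the order of the other 9 was as in controls. In heterozygous mice *Rragd* kept place 4, at 5.40 ± 0.954 FPKM.

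The genes around *Rragd* were read as a check on the chromosome region. Within 500 kb, 8 genes were tested, namely *Bach2*, *Casp8ap2*, *Mdn1*, *Lyrm2*, *Ankrd6*, *Ube2j1*, *Pnrc1* and *Rngtt*. Their homozygous against control differences ran from -0.47 (SE 0.28) in *Bach2*, a B cell factor, to 0.10 (SE 0.11) in *Lyrm2*, and 0 passed the adjusted test by edgeR, with 1, *Rngtt* at -0.17 (SE 0.07), under an unadjusted p of 0.05 (background 8.06%). In heterozygous against control mice 0 passed the adjusted test and 1, again *Rngtt* at -0.16 (SE 0.07), was under an unadjusted p of 0.05 (background 5.29%), with heterozygous libraries all below the controls (background 0.467%), and in homozygous against heterozygous mice 0 were under 0.05 in either way. *Ankrd6* and *Ube2j1*, the nearest genes on either side, gave 0.09 (SE 0.22) and -0.07 (SE 0.05). Of the genes that overlap members, *Gm11943*, on the strand opposite to *Rragd*, had a mean of 0.00253 CPM, and the highest was *Gm12905*, antisense to *Rragc*, at 1.27 CPM.

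The wider pathway was described through 10 lists of 142 gene symbols, of which 136 passed the filter. *Castor1*, *Atp6v1b1*, *Atp6v1c2*, *Atg9b* and *Tfec* did not pass, and *Tmem55b* is an older symbol of the listed *Pip4p1*. In homozygous against control mice 57 genes had higher and 79 lower fitted values, the median was -0.02, and 0 passed an adjusted p under 0.05 by edgeR (background 0.411%), with 4 higher and 3 lower at an unadjusted p under 0.05, which is 5.15% of the lists against 8.06% of all genes. The number under 0.05 was 13 without control 4, 11 without control 5 and 23 with the enterocyte score as a covariate, and 4 with the smooth muscle score. The share of all genes under 0.05 in these fits is not given, so these numbers cannot be read as an excess in the lists. DESeq2 called 1 gene, *Scarb2*, and limma-voom called 0. In heterozygous against control mice 70 were higher and 66 lower and 0 were called, with 2.94% at an unadjusted p under 0.05 against 5.29% of all genes. In homozygous against heterozygous mice 57 were higher and 79 lower and 0 were called, with 5.15% under 0.05 against 7.61%. The number under 0.05, 4 in heterozygous against control mice and 7 in homozygous against heterozygous mice, ran from 2 to 10 and from 2 to 16 over the alternatives, with 16 when heterozygous 4 was left out. For these alternatives, too, the share of all genes is not given.

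Upstream of the Rag GTPases, 0 genes were called by edgeR or had an unadjusted p under 0.05 in any of the 3 comparisons. Ragulator, the anchor of the Rag GTPases on the lysosome, listed here with the arginine transporter *Slc38a9*, had all 6 genes tested, between -0.07 (SE 0.08) for *Slc38a9* and 0.07 (SE 0.09) for *Lamtor5* in homozygous against control mice. GATOR1, the GTPase-activating complex for RagA and RagB, with its KICSTOR anchor had a median of -0.01 over 7 genes and its highest value, 0.11, in *Itfg2*, and GATOR2, which restrains GATOR1, ran over 5 genes from -0.09 for *Seh1l* to 0.09 for *Mios*. Of 7 amino acid sensor genes tested, *Sesn1*, a sestrin, was lowest, at 94.7 ± 9.86 CPM in homozygous and 108 ± 5.50 in control mice (-0.19, SE 0.10, adjusted p = 0.636 by edgeR), and *Castor2* was highest at 0.11. In heterozygous against control mice the sestrin gene *Sesn3* was lowest, at -0.30 (adjusted p = 1).

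Downstream of the Rag GTPases lie mTORC1 and its substrates, the proton pump of the lysosome and the genes that the TFEB family is known to switch on. Among 14 genes of mTORC1, Rheb and TSC, *Eif4ebp1*, which encodes a translation repressor that mTORC1 phosphorylates, was at 36.0 ± 5.26 CPM in homozygous and 27.7 ± 3.92 in control mice (0.38, SE 0.11, adjusted p = 0.222 by edgeR), and *Mlst8* was lowest at -0.12. Of 18 genes of the vacuolar ATPase, 14 had lower and 4 higher values with a median of -0.02, between -0.10 for *Atp6ap2* and 0.26 for *Atp6v0d2*. The last was below 3 CPM on average in all groups, with an SE of 1.00.

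Lysosomal hydrolases, 30 genes, had a median of -0.04. *Lipa*, the acid lipase that frees fatty acids and cholesterol in the lysosome, was at 72.4 ± 8.06 CPM in controls, 87.2 ± 11.8 in heterozygous and 89.2 ± 20.5 in homozygous mice, a difference of 0.30 (SE 0.11) from controls in both, with adjusted p of 0.492 for homozygous and 0.732 for heterozygous mice by edgeR. *Neu1*, the lysosomal sialidase, was lowest, at 512 ± 53.9 CPM in controls and 427 ± 59.2 in homozygous mice (-0.26, SE 0.12, adjusted p = 0.599). Of 15 lysosomal membrane genes tested, *Scarb2*, which carries glucocerebrosidase to the lysosome, was at 89.7 ± 13.8 CPM in controls, 102 ± 15.3 in heterozygous and 118 ± 23.0 in homozygous mice (0.40, SE 0.11, adjusted p = 0.193 by edgeR for homozygous against control). *Ctns*, the cystine exporter of the lysosome, was at 26.3 ± 2.86 CPM in controls and 22.8 ± 2.02 in homozygous mice (-0.20, SE 0.07, adjusted p = 0.398).

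Autophagy genes, 25 tested, ran from -0.18 for *Atg14* to 0.30 (SE 0.15) for *Gabarapl1*, a member of the family that coats autophagosomes, with a median of -0.02. In the last list, of partners and further targets of the TFEB family, *Rubcn*, a brake on autophagy, was lowest (-0.18, SE 0.08, adjusted p = 0.601). *Gpnmb*, a macrophage gene that the family induces, ranged so widely between mice that its difference of 0.63 had an SE of 0.90, at 13.8 ± 16.1 CPM in controls and 21.0 ± 21.5 in homozygous mice. The letters CACGTG were in the promoter windows of 27.5% of the 109 listed genes with a window, against 8.09% of all genes.

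**Figure D4:**
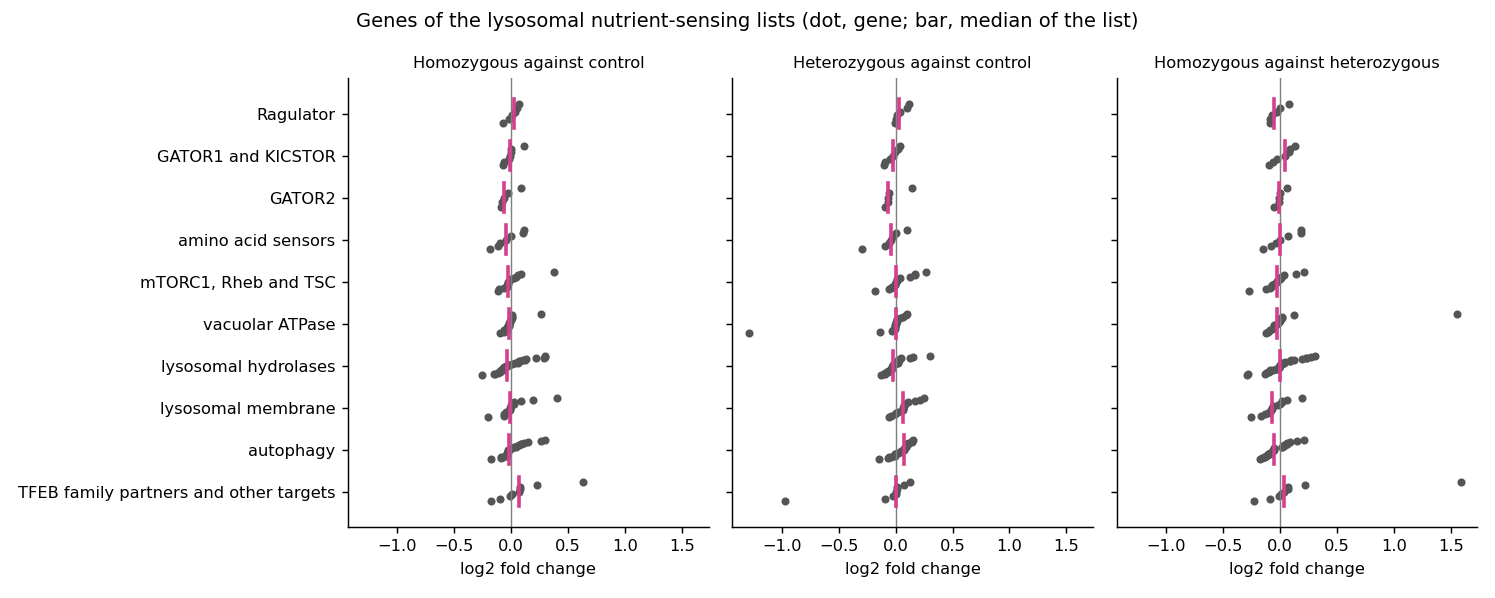
Fitted log2 fold change (horizontal axes) of the tested genes of the 10 pathway lists in the 3 comparisons, 1 dot per gene, with a bar at the median of each list. List medians lie between -0.07 and 0.07, and the dots far from 0 are *Atp6v0d2* and *Gpnmb*.

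The genes whose pattern was most like that of *Rragd* were found by Pearson's r of log2 CPM over the 18 libraries, among 12644 other genes tested, and are given with no test since the libraries share genotype, depth and tissue makeup. The highest r belonged to *Wipf3* (0.859), *Gnpda1* (0.855), *Leap2* (0.850), *Bche* (0.849) and *Cd164* (0.829), and the lowest to *Fa2h* (-0.848), *Slc6a14* (-0.837), *Hoxc9* (-0.817), *Srf* (-0.815) and *Ociad2* (-0.803). *Leap2*, a gut hormone gene, was at 3.66 ± 1.40 CPM in controls and 1.30 ± 0.670 in homozygous mice, and *Slc6a14*, an amino acid transporter gene, at 11.7 ± 16.5 and 49.5 ± 22.4 CPM. With genotype means subtracted the list was different, led by *Stk24* (0.844) and *Abcg8* (0.807) and, at the other end, *Fam83e* (-0.802) and *Med19* (-0.785). Among the members, *Flcn* was the most like *Rragd*, with r = 0.553 over all libraries and 0.398 with genotype means subtracted, and the other 8 lay between -0.27 and 0.325 over all libraries. With genotype means subtracted *Fnip2* (0.382) and *Rraga* (0.346) were close to *Flcn*, and *Rragb* was lowest at -0.0682.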

How the data were processed

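Ileum of 18 mice was sequenced, with 1 library per mouse, and grouped by the genotype in the sample labels. The authors aligned reads with STAR to the Ensembl GRCm38 assembly and counted uniquely aligned, unambiguous reads per gene with featureCounts. The deposited counts carry no normalization. CPM values deposited by the authors are counts scaled to the library total, and the deposited FPKM values are CPM per kilobase of gene length. Log2 CPM values deposited by the authors, moderated by a prior count, were not used.

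A gene had to exceed 3 CPM in 4 or more libraries, which 13709 did. The 12645 protein-coding genes among them entered edgeR 4.0.16 in R 4.3.3 (TMM factors, quasi-likelihood test by glmQLFit and glmQLFTest, all 18 libraries, a coefficient for each genotype), with Benjamini-Hochberg adjustment at 0.05. Fold changes are log2 with their standard errors. *Rragb* was compared by exact permutation tests. For likeness, a prior count of 2 was added before taking log2 CPM. The script was tested on simulated data. Alternatives were DESeq2 1.42.0, limma-voom (limma 3.58.1), other size factors and filters, all biotypes, only the libraries compared, sex and marker scores as covariates, males alone, the replicate block and leaving out each library. Python 3.11.15 handled promoters and matplotlib 3.10.9 drew plots.

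The members and lists were chosen with earlier results of these data known. Named genes were the 10 members, *Ppara* and *Xist*, of each pathway list any called gene and the highest and lowest fold change, the 8 neighbours, and the 5 highest and 5 lowest correlations. *Lipa* in heterozygous mice, *Tfe3* and *Flcn* between the sexes, *Sesn3* and the marker genes *Fabp1*, *Fabp2* and *Ret* were singled out after their values were seen. A gene that this rule names is not reported here.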

Additional observations from a re-analysis of the deposited data

Results flagged for a closer look

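Among 30 sets of 6 libraries, 10 members in 3 groups, 1 held a library that stood apart from the others of its group by Dixon's criterion, and chance gives about 1 in 20. It was *Rragc* in homozygous 3, at 66.4 CPM, where the gap to the next library was 0.627 of the range of the group. The same library was the highest of all 18 in *Mitf*, at 7.78 CPM, and in markers of smooth muscle (9690 CPM), fibroblasts (5600 CPM), macrophages and dendritic cells (1590 CPM), interstitial cells of Cajal (150 CPM), enteric neurons and glia (91.6 CPM) and mast cells (12.3 CPM), and the lowest in Paneth cell markers (9600 CPM). Their part in the *Rragc* value was not tested.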

How the results depend on the processing

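Under the 13 planned and 2 added alternatives and the 18 fits without 1 library, 0 members other than *Rragd* were called in any comparison. *Rragd* stayed between -0.92 and -0.66 in homozygous against control mice, between -0.81 and -0.61 against heterozygous mice and between -0.21 and -0.02 in heterozygous against control mice. Of 136 pathway genes, 1 (*Scarb2*) was called in homozygous against control mice with DESeq2 and with the enterocyte score. Direction turned for members with a difference near 0 or a wide error. In males alone *Rragc* was 0.04 and *Fnip2* 0.10 (homozygous against control), *Mitf* -0.10 (heterozygous against control) and *Fnip2* 0.02 (homozygous against heterozygous). Covariates turned *Mitf* to -0.13 (homozygous against heterozygous, smooth muscle score) and, in homozygous against control mice, *Tfeb* to 0.06 (B cell score), *Rraga* to 0.01 and *Tfe3* to -0.03 (distal ileum score) and *Fnip2* to 0.05 (enterocyte score). Without 1 library each, homozygous against control values ran from -0.03 to 0.02 for *Rraga*, -0.06 to 0.01 for *Rragc*, -0.15 to 0.05 for *Fnip2*, -0.13 to 0.02 for *Tfeb* and -0.02 to 0.07 for *Tfe3*, heterozygous against control values from -0.03 to 0.13 for *Fnip2* and -0.05 to 0.19 for *Mitf*, and homozygous against heterozygous values from -0.01 to 0.11 for *Tfeb*. The cause of these turns was not tested. The paper used littermates, but the labels do not say whether mice of the same replicate number were related. Of 18 same-numbered pairs, 9 had deviations correlated above 0.1 (range -0.606 to 0.642). Such correlations cannot show whether the numbers pair the mice, so shared litters were not accounted for in the main fit. With the replicate block *Rragd* was -0.82 and 0 other members were called. Counts were low for *Rragb*, at 10 to 73, and for *Mitf*, at 58 to 342, and the part of depth in their spread between mice was not tested.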
